A study of Canis lupus familiaris with 29 samples.

Results

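Madin-Darby canine kidney (MDCK) type II cells, an established line of dog kidney tubule epithelium, were grown in 3D collagen with hepatocyte growth factor (HGF) and compared with untreated cells in the same culture. Of the 29 Affymetrix canine arrays of the series, 8 belong to this comparison by their labels, 4 of 3D cells given HGF without an inhibitor (the HGF arrays) and 4 of untreated 3D cells (the control arrays). Other arrays were used to set values beside these: 4 of cells given HGF in flat (2D) culture, 4 of untreated 2D cells, 3 of 3D cells given HGF with PD-98059 and 3 of 3D cells given HGF with U0126. The rest were 4 of 2D cells given HGF with PD-98059 and 3 of 2D cells given HGF with U0126. The level filter, the choice of probe set and the fit used all 29 arrays, so every array bears on the standard errors and adjusted p-values. All 29 arrays hold RNA of this 1 cell line. The labels state no dose or time. They do not say either whether the arrays of a group came from separate cultures, so the p-values rest on a spread between arrays that may be technical.

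HGF is the ligand of MET, a receptor tyrosine kinase that recruits adaptors such as GRB2 and GAB1 and passes the signal through RAS and MEK to the kinase ERK. In collagen, MDCK cells form hollow cysts with the apical membrane turned to a lumen, and HGF is known to make such cysts extend and branch into tubules. In flat culture HGF loosens cell contacts and scatters the cells. PD-98059 and U0126 both inhibit MEK.

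Each value is the log2 level of a probe set, the array's feature for a transcript, as the authors deposited it. A gene with several probe sets is given by the tested one with the highest mean level over the 29 arrays. Of 42924 probe sets that are not array controls, 16571 were tested, those at log2 5 or more on at least 3 of the 29 arrays. They represent 6862 named genes. Differences are HGF minus control on the log2 scale, with the standard error from limma. That error rests on the spread within all 8 groups of the 29 arrays. It can therefore understate the spread of a gene whose HGF arrays lie far apart. A gene rose or fell where its adjusted p was below 0.05 over all 16571 tested probe sets, and a gene whose mean is below log2 5 in a group is called dim there, which stands for a level near background. Groups of genes with a shared role, 48 in all, were described by how many of their tested members rose or fell. These groups name 1434 different genes, of which 1272 had a named probe set and 834 were tested, and a member that passed the level filter only through the arrays where it is high had to differ. List medians near 0 moved severalfold or changed sign when single arrays were left out and give no direction.

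The HGF arrays differed from each other more than the control arrays did. Correlations between HGF arrays lay between 0.964 and 0.991, against 0.993 to 0.997 between control arrays. HGF replicates 1 and 4 lay farthest from their group, with a mean absolute deviation of 0.311 and 0.268 on the log2 scale, while no control array exceeded 0.120. An RNA-quality index was taken as the mean 3′ minus 5′ (or middle) difference of the control probe sets for ACTB, GAPDH and EEF1A1. A higher index stands for a stronger 3′ bias, that is, poorer RNA. It was 2.46, 1.73, 1.42 and 1.09 in HGF replicates 1 to 4, against 2.15, 1.74, 2.12 and 1.71 in control replicates 1 to 4. Its mean was 1.68 ± 0.583 in HGF arrays and 1.93 ± 0.238 in control arrays (SD, n = 4 each), a difference of -0.26 with an exact two-sided permutation p of 0.514, where the smallest p possible is 0.0286. Without HGF replicates 1 and 4, 9647 probe sets were called, against 10283 (62.1%) with them. Of 11 kidney epithelial markers with a probe set 7 had 1 or more of the 8 arrays at log2 5 or above, among them CDH16, EPCAM, KRT8 and KRT18, while CDH1 stayed below log2 3. No fibroblast marker of 12, no endothelial marker of 10 and 1 leukocyte marker of 12 (MS4A1) reached it. The named probe sets of ACTB and GAPDH, both broadly expressed genes, peaked at log2 2.23 and 4.09 over the 29 arrays. A low level on these arrays, as for CDH1, therefore does not show that a transcript is absent. The mean level of the fibroblast list was 2.90 to 3.06 in HGF arrays and 2.85 to 2.92 in control arrays, and that of the epithelial list 8.20 to 8.27 in HGF arrays and 8.47 to 8.57 in control arrays.

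Most tested genes changed with HGF in collagen. Of the 6862 genes, 2083 rose and 2284 fell, so that 63.6% were called, 30.4% higher and 33.3% lower. Over probe sets 4879 rose and 5404 fell as deposited, but median centring of each array moved the median difference by 0.10 and gave 5875 rises and 4799 falls, and quantile normalization gave 5938 rises and 5137 falls. For 54.3% of genes the HGF and control arrays did not overlap, 25.2% with HGF higher and 29.1% with HGF lower. Small changes prevailed: the middle of the distribution of differences ran from -0.52 to 0.43 (its quartiles), with a median of 0.00. Changes of at least 2-fold were called for 666 genes that rose (9.71%) and 940 that fell (13.7%), and for 9.89% and 14.1% of probe sets, and falls outnumbered rises by more at larger sizes: at least 4-fold for 99 genes that rose and 289 that fell, and at least 8-fold for 22 that rose and 110 that fell. Among called genes of any size, 139 that rose were dim in control arrays and 288 that fell were dim in HGF arrays. Part of the larger changes rest on a dim side as well. With both groups at log2 5 or more, 67 genes rose and 170 fell at least 4-fold. The share of genes called was smaller at low levels of the higher group, being 35.3% below log2 5, 45.6% from log2 5 to 7, 64.4% from 7 to 9, 71.8% from 9 to 11 and 70.3% at 11 or more. The level and size of all changes are shown in the plot of differences against levels. In these whole-culture samples, a change in the share of cells that express a gene and a change in RNA per cell cannot be told apart.

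**Figure D1:**
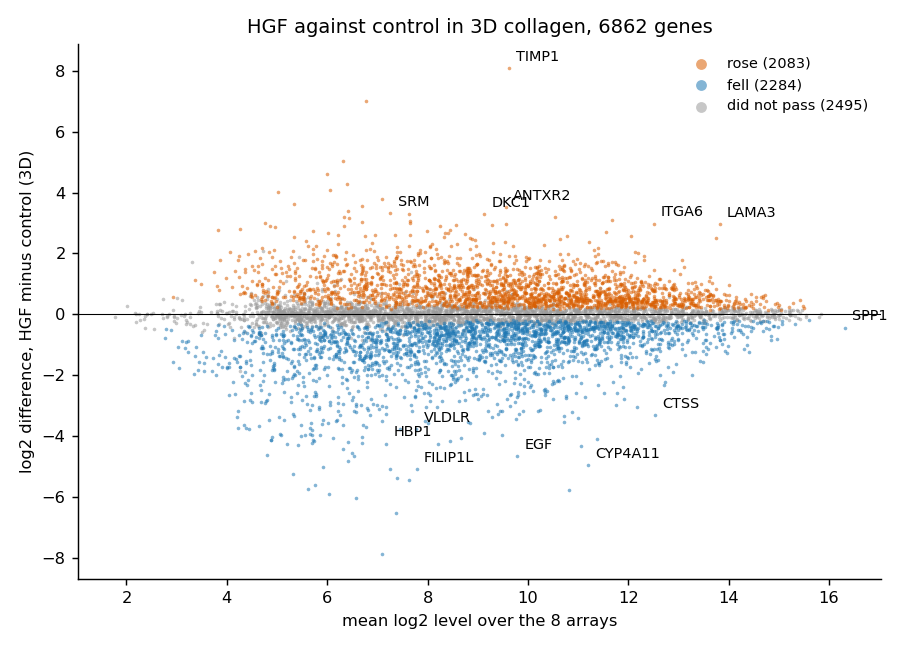
Log2 difference (HGF minus control, 3D) of 6862 genes against their mean log2 level over the 8 arrays; orange points rose, blue points fell and grey points did not pass an adjusted p of 0.05. Falls of more than 4 on the log2 scale outnumber rises of that size, and the named genes are described in the text.

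Among the genes with the largest rises were enzymes and factors of growth. SRM, spermidine synthase of the polyamine pathway, had levels of 8.69, 9.16, 9.05 and 8.77 in the HGF arrays, against 5.40, 5.76, 5.74 and 5.51 in the control arrays. All HGF arrays stood above all control arrays, a difference of 3.31 ± 0.16 (adjusted p = 3.36e-15). POLR1G, a subunit of RNA polymerase I, had levels of 8.19, 8.35, 8.12 and 8.17 in the HGF arrays, against 5.69, 5.05, 4.98 and 4.94 in the control arrays and rose by 3.04 ± 0.14. SLC25A32, the mitochondrial folate carrier, had 9.52, 8.26, 9.55 and 9.42 in the HGF arrays, against 6.22, 6.20, 6.11 and 5.96 in the control arrays. Its rise was 3.06 ± 0.28, and its lowest HGF array, replicate 2, lay well above its highest control array. ANTXR2, a receptor for matrix collagen and laminin that also binds anthrax toxin, had 11.60, 10.72, 11.51 and 11.45 in the HGF arrays, against 7.69, 8.30, 7.36 and 7.87 in the control arrays, a rise of 3.52 ± 0.32. TMEFF2, a transmembrane protein with an EGF-like domain, rose by 3.21 ± 0.11 with all 3 of its probe sets higher. SERPINE2, an inhibitor of serine proteases, rose by 3.10 ± 0.12, and ELOVL1, which elongates very long chain fatty acids, by 2.24 ± 0.092. S100A2, a calcium-binding protein of stratified epithelia, rose by 2.57 ± 0.11.

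The largest falls among genes measured in both groups included a secreted ligand, fatty acid enzymes and a cell cycle repressor. EGF, a ligand of the EGF receptor made by kidney tubules, had 7.63, 7.54, 7.90 and 6.78 in the HGF arrays, against 12.15, 12.001, 12.23 and 12.09 in the control arrays. It fell by 4.65 ± 0.15 (adjusted p = 4.99e-19), and all HGF arrays lay below all control arrays. CYP4A11 and CYP4A37, fatty acid hydroxylases of 1 gene family whose probe sets may bind each other's transcripts, fell by 4.93 ± 0.22 and 4.10 ± 0.13. FILIP1L, a filamin-interacting protein, had 6.001, 5.10, 4.55 and 5.35 in the HGF arrays, against 10.27, 10.31, 10.47 and 10.22 in the control arrays, a fall of 5.07 ± 0.22. HBP1, a transcriptional repressor that slows the cell cycle, had 3.85, 5.03, 5.08 and 6.26 in the HGF arrays, against 9.08, 9.48, 8.97 and 9.62 in the control arrays. It fell by 4.24 ± 0.30, and all 3 of its probe sets were lower. The small heat shock protein CRYAB fell by 4.16 ± 0.35, and APOBEC1, an RNA-editing cytidine deaminase, by 4.05 ± 0.11. Other falls had small standard errors. ADGRF1, an adhesion G protein-coupled receptor, fell by 3.18 ± 0.081, TSC22D3, the glucocorticoid-induced leucine zipper, by 2.77 ± 0.070, MLF1 by 3.13 ± 0.081, CCPG1, a receptor of endoplasmic reticulum autophagy, by 3.42 ± 0.10, and SELENBP1, a selenium-binding protein, by 2.84 ± 0.087. For TSC22D3 the arrays stood at 9.09, 9.14, 9.19 and 9.07 in the HGF arrays, against 11.91, 11.88, 11.84 and 11.95 in the control arrays. The arrays of each group of this gene lie close together, and the groups do not overlap.

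**Figure D2:**
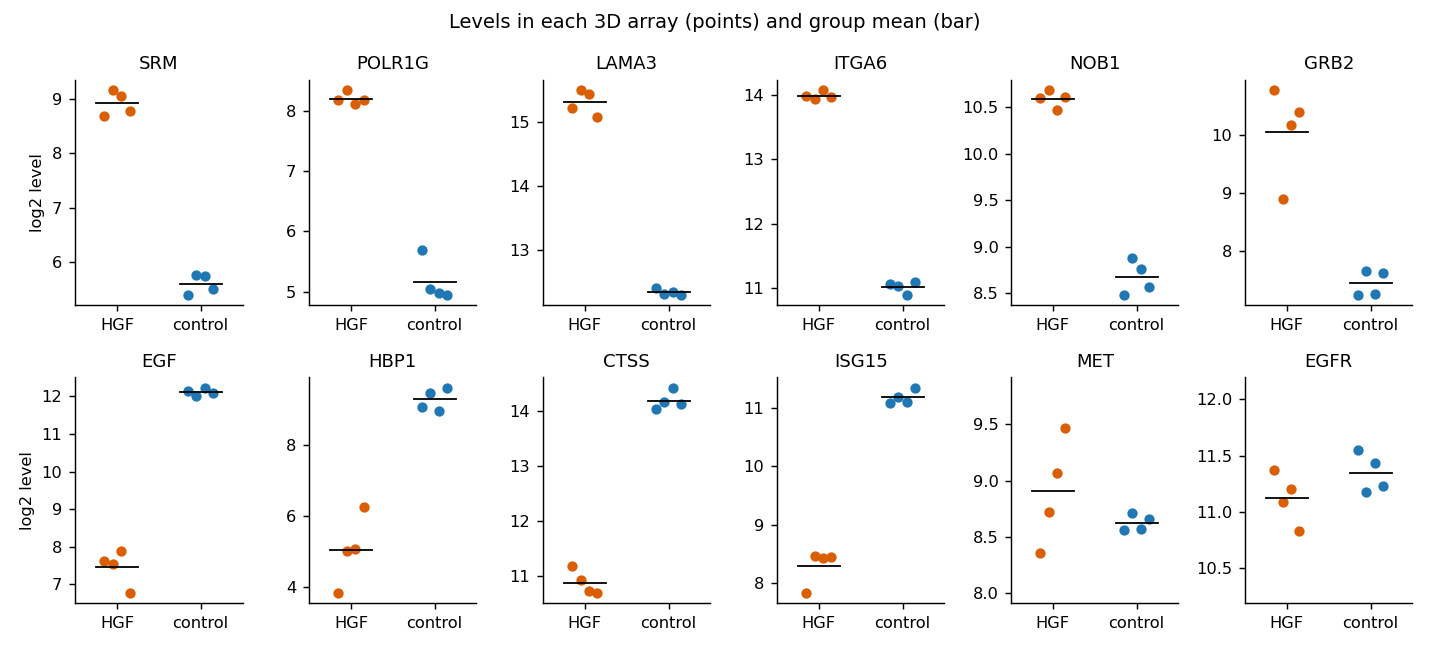
Log2 level of 12 genes in each array, HGF arrays (orange, left) and control arrays (blue, right) in 3D; each point is an array and the bar is the group mean. For SRM, POLR1G, EGF, HBP1 and CTSS no HGF array lies within the range of the control arrays, while for MET and EGFR the arrays of both groups overlap.

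The genes with the highest levels changed little. SPP1, the secreted phosphoprotein osteopontin, averaged 16.10 in HGF arrays and 16.53 in control arrays, a fall of 0.43 ± 0.075, which was 0.06 after a further quantile normalization and then no longer passed (adjusted p = 0.116). S100A10, a partner of annexin A2, rose by 0.49 ± 0.089 and the folding enzyme PPIB by 0.38 ± 0.075. LAMA3, the alpha chain of laminin-332, was the exception among the 8 called genes with the highest HGF levels, with 15.21, 15.49, 15.43 and 15.07 in the HGF arrays, against 12.42, 12.31, 12.35 and 12.30 in the control arrays, a rise of 2.96 ± 0.11.

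The receptor itself did not pass the test. MET had 8.36, 8.72, 9.07 and 9.47 in the HGF arrays, against 8.56, 8.71, 8.57 and 8.66 in the control arrays. The arrays overlap, the difference was 0.28 ± 0.16 (adjusted p = 0.141), and it passed with median centring, quantile normalization, array weights or without HGF replicate 1, where it lay between 0.36 and 0.46. Of 12 tested genes of the MET pathway 3 rose and 6 fell (median -0.57). The docking protein GAB1 fell by 2.09 ± 0.20 to a dim level, the PI3-kinase subunit PIK3R1 by 1.47 ± 0.082, the plexin PLXNB1 by 0.90 ± 0.16, and HPN, the protease hepsin, which activates HGF, by 0.67 ± 0.13. The adaptors SHC1 and CRKL rose by 0.49 ± 0.18 and 0.43 ± 0.12. SHC1 no longer passed with the arrays of both groups alone or without HGF replicate 1, HGF replicate 2 or control replicate 2, where its difference was 0.32, 0.43 and 0.44. The adaptor GRB2 had 10.79, 8.90, 10.18 and 10.41 in the HGF arrays, against 7.24, 7.65, 7.26 and 7.62 in the control arrays. The groups do not overlap and the rise was 2.62 ± 0.60, but the HGF arrays lie far apart. The highest is replicate 1, which has the highest RNA-quality index and so the poorest RNA by that measure. In a fit with the index as a covariate the rise was 2.74.

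Genes downstream of ERK rose together. Of 10 tested members of the ERK output list 9 rose and none fell (median 1.47), while EGR1, an early transcription factor, at -0.35 ± 0.27, did not pass but fell without HGF replicate 1. DUSP5, a phosphatase of ERK, had 9.21, 10.16, 10.07 and 10.23 in the HGF arrays, against 7.81, 7.90, 7.49 and 7.86 in the control arrays, a rise of 2.15 ± 0.20. ELK3, a transcription factor activated through ERK, rose by 2.04 ± 0.12, the cyclin CCND1 by 1.93 ± 0.12, and DUSP6, a further ERK phosphatase, by 0.82 ± 0.092. EPHA2, an ephrin receptor, averaged 5.20 in HGF arrays and was dim in control arrays.

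Of 8 tested EGF receptors, ligands and regulators 2 rose and 3 fell (median -0.11), shares near those of all genes. The ligand epiregulin, EREG, had 6.94, 6.72, 6.86 and 7.56 in the HGF arrays, against 3.06, 2.998, 3.07 and 2.94 in the control arrays, a rise from a dim level. ERRFI1, an inhibitor of the EGF receptor, had 15.01, 14.93, 15.17 and 14.94 in the HGF arrays, against 12.53, 12.48, 12.57 and 12.39 in the control arrays, a rise of 2.52 ± 0.12. ERBB3, a receptor of neuregulins, had 5.18, 5.92, 5.47 and 5.79 in the HGF arrays, against 8.72, 8.52, 8.50 and 8.60 in the control arrays. It fell by 2.995 ± 0.14, with no overlap of the arrays. The ligand EGF fell, as given above, and ADAM10, a protease that sheds ligands of the family, fell by 0.28 ± 0.090 but no longer passed with array weights or without HGF replicates 1 and 4. EGFR itself had 11.38, 11.09, 11.20 and 10.84 in the HGF arrays, against 11.55, 11.17, 11.44 and 11.23 in the control arrays, a difference of -0.22 ± 0.12 that did not pass (adjusted p = 0.116), while without HGF replicate 1 it was -0.31 and passed.

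In the TGF-beta and BMP list 5 of 18 tested genes rose and 6 fell (median -0.03), shares near those of all genes. The genes that rose by most code for ligands and an antagonist. BMP2 had 12.67, 11.30, 12.14 and 12.13 in the HGF arrays, against 9.45, 9.44, 9.57 and 9.52 in the control arrays, a rise of 2.56 ± 0.29. The activin antagonist FST rose by 2.32 ± 0.37, BMP4 by 1.67 ± 0.19 and BMP7 by 0.84 ± 0.099. Among those that fell were receptors and a target: TGFBR3 by 1.08 ± 0.28, the BMP target ID3 by 0.98 ± 0.15, and the receptors ACVR1 and BMPR1A by 0.82 ± 0.12 and 0.52 ± 0.14. The WNT list had 3 rises and 2 falls among 16 tested genes (median 0.13), 7 rises with median centring or quantile normalization, and a median of 0.019 without HGF replicate 1. GSK3B rose by 1.35 ± 0.26, and the WNT target AXIN2 fell by 0.92 ± 0.18. Of 2 tested Notch genes 1 rose, the transcription factor RBPJ, by 1.56 ± 0.37. Among guidance genes 4 of 11 rose and 4 fell (median -0.01): the semaphorin SEMA3C rose by 1.99 ± 0.42 from a dim level, and the plexin PLXNB2 and the ephrin EFNA1 fell by 1.66 ± 0.21 and 1.25 ± 0.094.

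Genes that anchor epithelial cells to laminin and to each other through keratin filaments rose in part. Of 15 tested desmosome and hemidesmosome genes 8 rose and 5 fell (median 0.66). Without HGF replicate 4, 7 rose and 6 fell with a median of 0.33, and with the RNA-quality index as a covariate the median was 0.33 as well. ITGA6, the integrin chain of hemidesmosomes that binds laminin-332, had 13.99, 13.94, 14.08 and 13.98 in the HGF arrays, against 11.06, 11.03, 10.89 and 11.09 in the control arrays. It rose by 2.98 ± 0.082 (adjusted p = 3.11e-20), with HGF arrays close to each other and far above control arrays. The desmosomal cadherins DSG3 and DSC2 rose by 3.31 ± 0.17 and 1.77 ± 0.30. Linker proteins were among those that fell. Desmoplakin, DSP, had 6.69, 7.11, 7.004 and 7.15 in the HGF arrays, against 8.05, 8.06, 8.25 and 8.17 in the control arrays, a fall of 1.14 ± 0.13. Further falls were 1.04 ± 0.10 for DST, 1.03 ± 0.11 for PKP4 and 0.73 ± 0.10 for periplakin, PPL. Integrins had 3 rises and 5 falls among 11 tested genes (median -0.08). ITGB1, the common beta chain of collagen and laminin receptors, had 13.03, 11.50, 12.40 and 12.69 in the HGF arrays, against 9.84, 10.21, 9.78 and 10.32 in the control arrays, a rise of 2.37 ± 0.34, with 1 of its 2 probe sets called. ITGB8 fell by 3.20 ± 0.25 to a dim level, ITGB5 by 1.64 ± 0.13, ITGB6 by 1.18 ± 0.13 and ITGAV by 0.74 ± 0.20, all of them chains of integrins that bind vitronectin or latent TGF-beta.

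Junction genes fell more often than they rose, but the share of tight junction genes that fell was near the 33.3% of all genes. Rises and falls of polarity genes were equal in number. Of 15 tested tight junction genes 2 rose and 6 fell (median -0.14), of 10 adherens junction genes 1 rose and 6 fell (median -0.28), and of 14 polarity genes 3 rose and 3 fell (median 0.02). With 1 array left out the tight junction rises numbered 0 (without HGF replicate 2) to 3 (without HGF replicate 4), 1 of them without HGF replicate 1 or 3 or control replicate 2, 3 or 4, with medians from -0.22 without HGF replicate 1 to -0.062 without HGF replicate 4. In the adherens junction list 2 genes rose without HGF replicate 1 or 3 or control replicate 4. Cingulin, CGN, a cytoplasmic plaque protein of tight junctions, had 9.14, 8.93, 8.68 and 8.23 in the HGF arrays, against 11.13, 10.95, 11.25 and 11.09 in the control arrays. It fell by 2.36 ± 0.16, and occludin, OCLN, by 1.15 ± 0.091. The polarity protein PATJ fell by 1.33 ± 0.20 and the apical determinant CRB3 by 1.22 ± 0.19, while PARD3 rose by 0.43 ± 0.072. In adherens junctions plakoglobin, JUP, fell by 1.02 ± 0.17 and NECTIN2 by 0.93 ± 0.14. N-cadherin, CDH2, the 1 member that rose, averaged 8.01 in HGF arrays and 4.86 in control arrays, a rise of 3.16 ± 0.22 from a dim level. Of 14 tested apical and lumen genes 2 rose and 7 fell (median -0.25), among them the apical mucin MUC1, which had 10.88, 10.73, 10.61 and 10.26 in the HGF arrays, against 12.38, 12.07, 12.20 and 12.16 in the control arrays and fell by 1.58 ± 0.11, and RAB3IP, an activator of RAB8 in apical transport, which fell by 1.63 ± 0.085. The 2 that rose, MAL2 and RAB27A, differed by 2.25 ± 0.62 and 1.10 ± 0.35, with wide standard errors. RAB27A no longer passed with the arrays of both groups alone (adjusted p = 0.0515), and without HGF replicate 4 its difference was 0.80 and did not pass either.

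Transcription factors of epithelial identity fell more often than they rose. Of 8 tested members of that list 1 rose and 4 fell (median -0.68): EHF fell by 2.27 ± 0.13, ELF3 by 2.03 ± 0.16 to a dim level, TFAP2B by 1.30 ± 0.12, and the splicing factor ESRP2 by 1.03 ± 0.16, while KLF4 rose by 1.40 ± 0.15. Of 10 tested mesenchymal markers 4 rose and 3 fell (median 0.09), shares near those of all genes. The repressor SNAI2 had 12.60, 13.09, 13.13 and 12.76 in the HGF arrays, against 10.32, 10.07, 10.41 and 10.02 in the control arrays, a rise of 2.69 ± 0.12, and ZEB1 rose by 1.37 ± 0.13 from a dim level, fibronectin, FN1, by 0.48 ± 0.13. Vimentin, VIM, was already at 15.53 in HGF arrays and 15.40 in control arrays and its difference of 0.13 ± 0.095 did not pass (adjusted p = 0.249), except with median centring, where it was 0.23. TAGLN, an actin-binding protein of contractile cells, had 5.84, 5.32, 5.75 and 5.24 in the HGF arrays, against 8.99, 8.76, 8.41 and 9.09 in the control arrays. It fell by 3.27 ± 0.22, and S100A4, known as fibroblast-specific protein, by 0.49 ± 0.12. Of 4 tested keratin genes none rose and 2 fell, KRT7 by 0.46 ± 0.11 and KRT18 by 0.23 ± 0.084, of which KRT18 no longer passed with median centring, array weights or the replicate block, nor without HGF replicate 4 or control replicate 1. Its fall lay between 0.13 and 0.23 in these settings.

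Basement membrane and matrix genes fell more often than they rose, 9 against 2 of 15 tested genes (median -0.46), with 1 rise without HGF replicate 3 or 4 or control replicate 1 or 3. LOXL2, an enzyme that crosslinks collagen, had 9.61, 9.49, 9.38 and 9.10 in the HGF arrays, against 11.74, 11.51, 11.63 and 11.66 in the control arrays. It fell by 2.24 ± 0.11, and its arrays did not overlap. LAMB2, the laminin beta-2 chain, fell by 3.79 ± 0.26 to a dim level, the fibrillar collagen gene COL5A1 by 1.98 ± 0.14, and agrin, AGRN, by 1.81 ± 0.15. Matrix proteases and their inhibitors had 4 rises and 5 falls of 15 (median -0.03), shares near those of all genes. From the largest rise down, the 4 were TIMP1, MMP1, SERPINE2 and MMP2. The rise of TIMP1 was the largest among called genes measured in both groups without overlap, and its means are given below with the inhibitors. MMP2, a gelatinase, rose by 1.03 ± 0.23, and the gelatinase MMP9, with 6.61, 7.06, 6.80 and 6.27 in the HGF arrays, against 8.98, 8.82, 8.81 and 8.93 in the control arrays, fell by 2.20 ± 0.24. The collagen-degrading protease cathepsin K, CTSK, fell by 2.07 ± 0.13, while TIMP2 and the plasminogen activator PLAT fell by 1.50 ± 0.22 and 1.36 ± 0.14 to dim levels. The collagenase MMP13 had 12.93, 12.81, 13.22 and 13.39 in the HGF arrays, against 12.41, 12.69, 12.39 and 12.57 in the control arrays. Its lowest HGF array lies above its highest control array, and the difference of 0.57 ± 0.34 did not pass in the fit that shares its spread over 8 groups (adjusted p = 0.15) but did with the arrays of both groups alone (adjusted p = 0.00562) or with the replicate block.

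Of 21 tested actin and focal adhesion genes 8 rose and 5 fell (median 0.14). The formin DIAPH3 rose by 1.78 ± 0.37, the crosslinker ACTN1 by 1.12 ± 0.27 and the tropomyosin TPM3 by 1.08 ± 0.20, while LIMA1, which bundles actin, fell by 1.16 ± 0.12 and talin, TLN1, by 0.51 ± 0.11. Focal adhesion kinase, PTK2, fell by 1.06 ± 0.31 on its brightest probe set, while 3 of its 5 probe sets rose, so that its direction is uncertain, and without HGF replicate 1 its difference was -0.63. The list named YAP targets also holds partners of YAP and showed 5 rises and 4 falls of 10 (median 0.19). Its largest rises were those of TEAD4, ASAP1, AJUBA and TEAD1. AJUBA no longer passed with the arrays of both groups alone, nor ASAP1 without HGF replicates 1 and 4. The matricellular genes CCN1 and CCN2 fell by 1.07 ± 0.19 and 1.38 ± 0.14 and ANKRD1 by 3.62 ± 0.22 to a dim level, while TEAD4, the partner of YAP on DNA, rose by 0.91 ± 0.23 from a dim level.

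Genes that build ribosomes rose almost without exception. Of 38 tested ribosome biogenesis genes 36 rose and none fell, with a median difference of 1.19, against 0.00 over all genes, and 34 had no overlap between arrays. NOB1, the endonuclease that completes 18S ribosomal RNA, had 10.61, 10.69, 10.47 and 10.61 in the HGF arrays, against 8.48, 8.88, 8.76 and 8.56 in the control arrays. It rose by 1.92 ± 0.12 (adjusted p = 2.02e-13), and RRS1, which assembles the large subunit, by 1.95 ± 0.31. DKC1, the pseudouridine synthase dyskerin, had 11.56, 10.10, 10.74 and 10.70 in the HGF arrays, against 7.44, 7.98, 7.10 and 7.42 in the control arrays. It rose by 3.29 ± 0.58, with HGF arrays farther apart from each other than for NOB1. The list held 36 rises without HGF replicates 1 and 4 as well (36 of 38, median 1.15). Of 25 tested nuclear pore and import genes 19 rose and none fell (median 0.60), with RANBP1 at 11.92, 12.48, 12.54 and 12.38 in the HGF arrays, against 10.73, 10.89, 10.58 and 10.80 in the control arrays, a rise of 1.58 ± 0.11. The import receptors IPO7 and TNPO1 rose by 1.43 ± 0.26 and 1.31 ± 0.15.

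**Figure D3:**
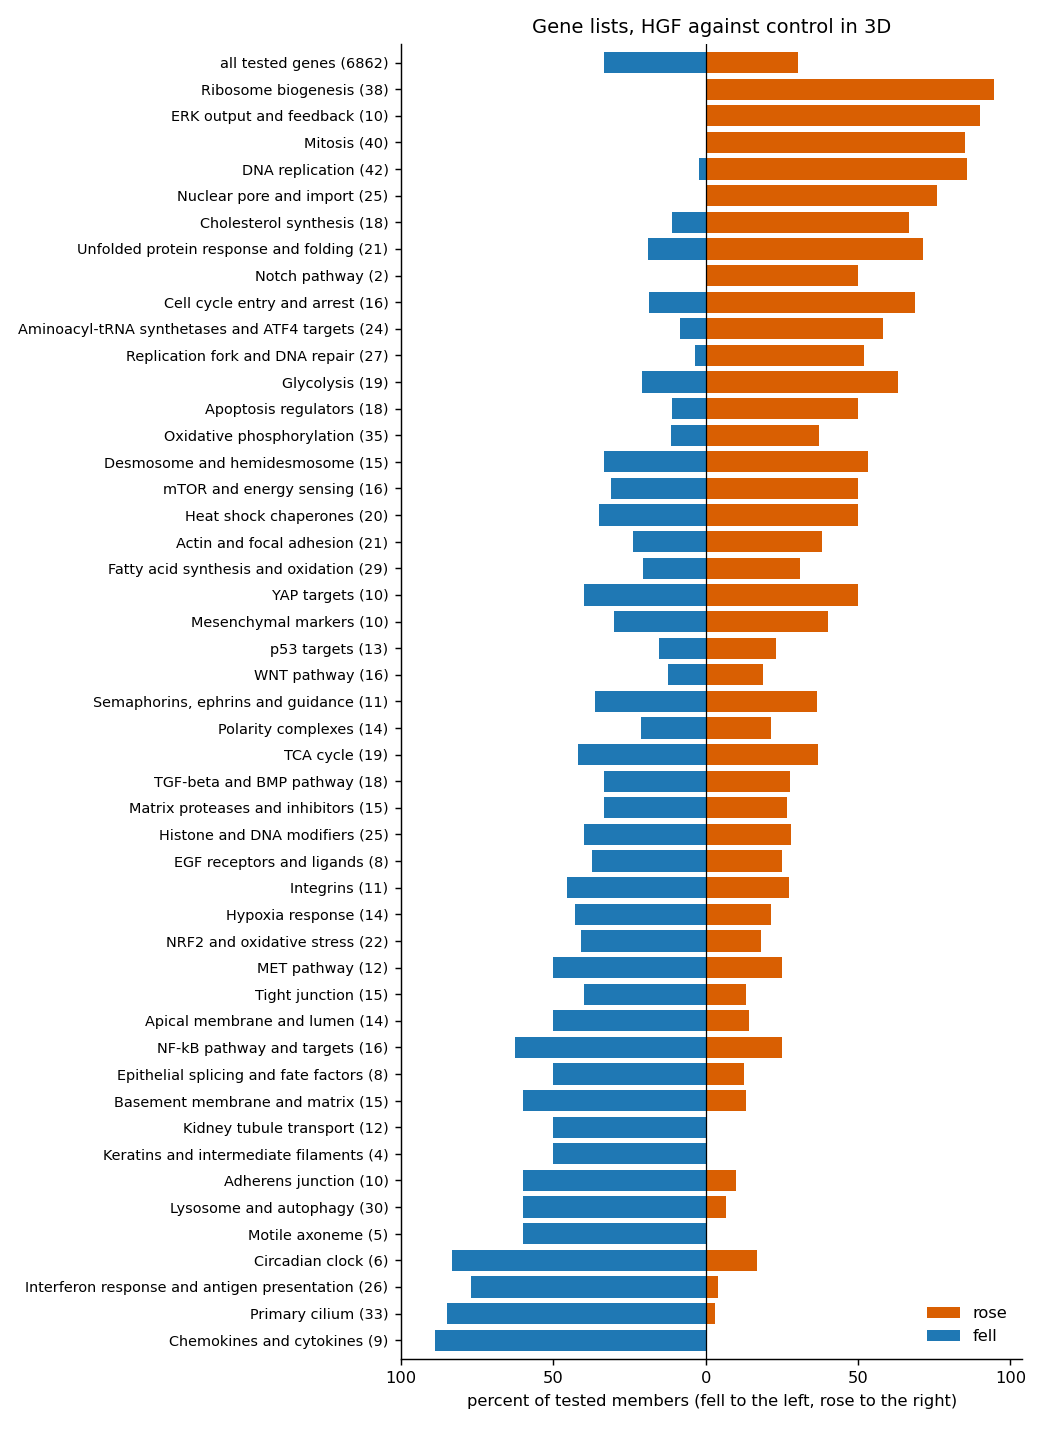
Percent of tested members that rose (orange, to the right) and fell (blue, to the left) with HGF in 3D for 48 gene lists and for all 6862 genes, with the number of tested members in parentheses. Ribosome biogenesis has 36 rises and no fall among 38 members, primary cilium 1 rise and 28 falls among 33, and all genes 30.4% and 33.3%.

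Replication and division genes rose too. Of 42 tested DNA replication genes 36 rose and 1 fell (median 0.96), of 40 mitosis genes 34 rose and none fell (median 1.05), and of 27 repair genes 14 rose and 1 fell (median 0.51), or 2 fell without HGF replicate 1, 2 or 3 or control replicate 4. CDC6, which loads the replicative helicase, had 9.34, 9.96, 9.94 and 10.14 in the HGF arrays, against 7.09, 7.14, 6.87 and 7.16 in the control arrays, a rise of 2.78 ± 0.18. ORC1 rose by 2.28 ± 0.15, and ORC3 of the same origin complex fell by 1.20 ± 0.091. The spindle kinase AURKA rose by 1.63 ± 0.14 and the nuclease EXO1 by 2.05 ± 0.26, while TP53BP1, which acts at DNA breaks, fell by 1.87 ± 0.17. Of 16 genes of cell cycle entry and arrest 11 rose and 3 fell (median 0.49). CCNE1 rose by 1.84 ± 0.11, and the inhibitor CDKN1A had 11.93, 11.60, 11.65 and 11.34 in the HGF arrays, against 9.74, 9.60, 9.51 and 9.77 in the control arrays, a rise of 1.98 ± 0.19. A further inhibitor, CDKN2B, fell by 2.80 ± 0.17 to a dim level, and RBL2, a relative of the retinoblastoma protein, by 1.68 ± 0.11. Among 13 tested p53 targets 3 rose and 2 fell (median -0.10), with TIGAR, a regulator of glycolysis, higher by 1.85 ± 0.12 and SESN1 lower by 1.05 ± 0.13. Of 18 apoptosis regulators 9 rose and 2 fell (median 0.29), BIRC3 and CASP9. The fall of CASP9 (difference -0.49) no longer passed with median centring, quantile normalization, array weights, the replicate block or the RNA-quality covariate. Nor did it pass with the arrays of both groups alone, or without HGF replicate 4, control replicate 4, or HGF replicates 1 and 4. Cytochrome c, CYCS, rose by 1.09 ± 0.11, and BIRC3, an inhibitor of apoptosis and target of NF-kB, had 9.13, 9.48, 9.50 and 8.97 in the HGF arrays, against 12.40, 12.66, 12.52 and 12.32 in the control arrays and fell by 3.20 ± 0.15.

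Genes of a metabolic pathway often moved in both directions, but so did the 6862 genes, of which 30.4% rose and 33.3% fell. Movement both ways therefore does not set these lists apart. Of 18 tested cholesterol synthesis genes 12 rose and 2 fell (median 0.43), with INSIG1 higher by 1.54 ± 0.13 and FDFT1, squalene synthase, by 0.97 ± 0.080. Fatty acid genes had 9 rises and 6 falls of 29 (median 0.11). PDK4, a kinase that shuts off pyruvate dehydrogenase, had 9.64, 9.65, 9.80 and 9.69 in the HGF arrays, against 6.92, 6.59, 6.82 and 6.80 in the control arrays. It rose by 2.91 ± 0.15, while the oxidation enzymes ACAA1, ACAA2 and ETFB fell by 1.14 ± 0.15, 1.01 ± 0.095 and 1.12 ± 0.089. Of 19 glycolysis genes 12 rose and 4 fell (median 0.35): PFKFB3, which makes the activator of phosphofructokinase, rose by 2.73 ± 0.17, and ALDOA by 1.07 ± 0.093. Its relative ALDOC fell by 1.11 ± 0.12, PDK1 by 2.04 ± 0.11, and ENO2 by 3.46 ± 0.16 to a dim level. In the hypoxia list 3 of 14 rose and 6 fell (median 0.00). VEGFA, a growth factor for vessels, rose by 1.30 ± 0.15, and adrenomedullin, ADM, had 8.999, 8.78, 8.92 and 8.77 in the HGF arrays, against 10.84, 10.83, 10.86 and 10.80 in the control arrays and fell by 1.97 ± 0.15.

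Oxidative phosphorylation genes changed by small amounts, with 13 rises and 4 falls of 35 (median 0.12) and 1 rise of at least 2-fold, that of CYC1, cytochrome c1 of complex III, by 1.76 ± 0.12. In the citric acid cycle 7 of 19 rose and 8 fell (median 0.01), while 5 fell with median centring or without HGF replicate 4, and 4 without HGF replicates 1 and 4. Citrate synthase, CS, had 12.29, 11.06, 12.22 and 11.97 in the HGF arrays, against 9.11, 9.71, 9.19 and 9.60 in the control arrays. It rose by 2.48 ± 0.39, while IDH3A rose by 1.56 ± 0.094 and the NADP-dependent enzymes IDH1 and IDH2 fell by 1.41 ± 0.28 and 0.55 ± 0.10. Of 24 tRNA synthetase and ATF4 target genes 14 rose and 2 fell (median 0.46). MTHFD2, a mitochondrial folate enzyme, rose by 2.43 ± 0.30, and the lipoprotein receptor VLDLR had 5.61, 5.93, 6.15 and 5.90 in the HGF arrays, against 9.78, 9.49, 9.78 and 9.58 in the control arrays and fell by 3.76 ± 0.12. Folding genes of the endoplasmic reticulum rose in 15 of 21 cases and fell in 4 (median 0.46). The cochaperone SDF2L1 rose by 1.91 ± 0.094, while the stress sensor EIF2AK3 fell by 2.94 ± 0.39 to a dim level. Of 20 heat shock chaperones 10 rose and 7 fell (median 0.19): DNAJB1 rose by 1.44 ± 0.11, and the small heat shock protein HSPB1 fell by 1.59 ± 0.11. Among 22 NRF2 and oxidative stress genes 4 rose and 9 fell (median -0.06). The ferritin heavy chain, FTH1, had 9.41, 9.38, 9.34 and 9.22 in the HGF arrays, against 11.73, 11.52, 11.71 and 11.48 in the control arrays, a fall of 2.27 ± 0.086. Catalase, CAT, fell by 1.37 ± 0.10 and SOD2 by 1.50 ± 0.20, and TXNRD1 rose by 1.26 ± 0.14. Of 16 mTOR and energy genes 8 rose and 5 fell (median 0.25), and 5 rose without HGF replicate 3 or control replicate 3, with EIF4EBP1 higher by 1.36 ± 0.11 and the mTOR inhibitor DEPTOR lower by 4.82 ± 0.43, to a dim level.

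Innate immune genes fell more often than they rose. Of 30 chemokines and cytokines with a probe set only 9 were tested, of which none rose and 8 fell (median -2.59). CXCL8, CCL7 and CXCL10 had differences of -7.88, -6.02 and -5.89 and were dim in HGF arrays. A member that passed the level filter only through control arrays had to fall. CCL2, measured in both groups, had a difference of -5.75. Of 16 NF-kB genes 4 rose and 10 fell (median -0.44, with 2 rises without HGF replicate 4). Of 26 tested interferon and antigen presentation genes 1 rose and 20 fell (median -1.60). ISG15, a ubiquitin-like protein induced by interferon, had 7.84, 8.46, 8.44 and 8.44 in the HGF arrays, against 11.09, 11.18, 11.11 and 11.35 in the control arrays. It fell by 2.89 ± 0.15 (adjusted p = 6.12e-15), with all HGF arrays below all control arrays. GBP1 and IFI44L, both induced by interferon, fell by 4.06 ± 0.14 and 5.08 ± 0.13 to dim levels, and the NF-kB inhibitor and target NFKBIA fell by 2.39 ± 0.094. The 1 member that rose was IFIT5, by 1.46 ± 0.31. The leukocyte marker PTPRC was at 2.87 in HGF arrays and 2.81 in control arrays, both dim.

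Lysosome and autophagy genes also fell, 18 of 30 with 2 rises (median -0.52). Cathepsin S, CTSS, had 11.19, 10.93, 10.73 and 10.71 in the HGF arrays, against 14.04, 14.17, 14.43 and 14.12 in the control arrays. It fell by 3.30 ± 0.10, and the autophagy protein GABARAPL1 by 3.17 ± 0.10. The lysosomal membrane protein SCARB2 and WIPI1, which acts in autophagosome formation, fell by 2.41 ± 0.12 and 2.32 ± 0.12. Cathepsin C, CTSC, rose by 1.15 ± 0.17. Of 33 tested primary cilium genes 1 rose and 28 fell (median -1.15). DYNC2H1, the motor of transport back from the cilium's tip, had 6.95, 6.52, 6.62 and 5.71 in the HGF arrays, against 9.57, 9.43, 9.46 and 9.49 in the control arrays, a fall of 3.03 ± 0.19. TMEM67, a protein of the ciliary transition zone, fell by 2.79 ± 0.15, and IFT20 rose by 0.60 ± 0.11. Of 5 tested genes of motile axonemes 3 fell (median -0.84), and of 12 kidney transport genes 6 fell and none rose (median -0.38, or -0.24 without HGF replicate 4), led by FXYD2, a subunit of the sodium pump, at 1.90 ± 0.15 lower and SLC12A2, a salt cotransporter, at 1.54 ± 0.13 lower.

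Clock and chromatin genes showed a few sizeable falls. Of 6 tested clock genes 1 rose and 5 fell (median -0.50), with BHLHE40 lower by 1.73 ± 0.13 and ARNTL higher by 0.57 ± 0.12. CRY1, 1 of the 5, had a difference of -0.45. With array weights it was -0.088 and without HGF replicate 1 it was -0.14, and neither passed. Of 25 histone and DNA modifiers 7 rose and 10 fell (median -0.09). The remodeller SMARCA2 had 9.26, 9.24, 9.35 and 9.04 in the HGF arrays, against 11.23, 11.06, 11.32 and 11.09 in the control arrays. It fell by 1.95 ± 0.095, the demethylase KDM3A by 1.90 ± 0.11, the acetyltransferase CREBBP by 1.40 ± 0.13, and HDAC5 by 3.11 ± 0.18 to a dim level, while KDM6B rose by 1.20 ± 0.28 from a dim level.

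Some genes varied widely among the HGF arrays. The 6 genes with the largest SD among HGF arrays were SLC35B3, DENND10, KIDINS220, CACUL1, APBB2 and EDIL3. KIDINS220, a scaffold protein at the membrane, had 8.02, 3.71, 6.53 and 7.24 in the HGF arrays, against 4.65, 4.01, 4.86 and 4.46 in the control arrays. Its HGF arrays span the range of the controls and beyond, and the difference of 1.88 ± 1.01 did not pass (adjusted p = 0.109), but did with the replicate block and, at 2.77, without HGF replicate 2. DENND10 had 4.16, 6.92, 7.71 and 8.56 in the HGF arrays, against 6.80, 7.74, 6.83 and 7.94 in the control arrays, where HGF replicate 1 lay below and replicate 4 above all control arrays. Its difference of -0.49 ± 0.56 did not pass (adjusted p = 0.465), but with the RNA-quality index as a covariate it was -1.30 and passed. EDIL3, an integrin ligand, had 7.88, 3.91, 6.23 and 7.01 in the HGF arrays, against 3.28, 3.28, 3.31 and 3.15 in the control arrays. It was dim in control arrays, and its rise of 3.002 ± 0.52 was 1.81 without HGF replicates 1 and 4. Among 328 genes chosen by fixed criteria for naming, no alternative turned the direction of a gene that had passed.

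The response in collagen differed from that in flat culture for 49.4% of genes by the test of the difference between both effects, 20.9% with a higher and 28.5% with a lower difference in 3D. The same test called 48.3% of probe sets. Ribosome biogenesis genes had a higher difference in 3D in 34 of 38 cases and a lower one in none. NOB1 rose by 1.92 ± 0.12 in 3D, against 0.38 ± 0.12 in 2D, a difference between the effects of 1.54 ± 0.16. SRM had 3.31 ± 0.16 in 3D and 1.64 ± 0.16 in 2D, a difference of 1.67 ± 0.23. Oxidative phosphorylation genes had a higher difference in 3D in 16 of 35 cases and a lower one in 1, and CYC1 stood at 1.76 ± 0.12 in 3D and -0.28 ± 0.12 in 2D. A lower difference in 3D was found for 13 of 14 hypoxia genes, 17 of 30 lysosome and autophagy genes, 21 of 26 interferon genes, 24 of 40 mitosis genes and 14 of 18 cholesterol genes. AURKA, of the mitosis list, rose by 1.63 ± 0.14 in 3D and by 2.89 ± 0.14 in 2D. In the hypoxia list ADM had opposite signs, at -1.97 ± 0.15 in 3D and 1.76 ± 0.15 in 2D, a difference of -3.73 ± 0.21.

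**Figure D4:**
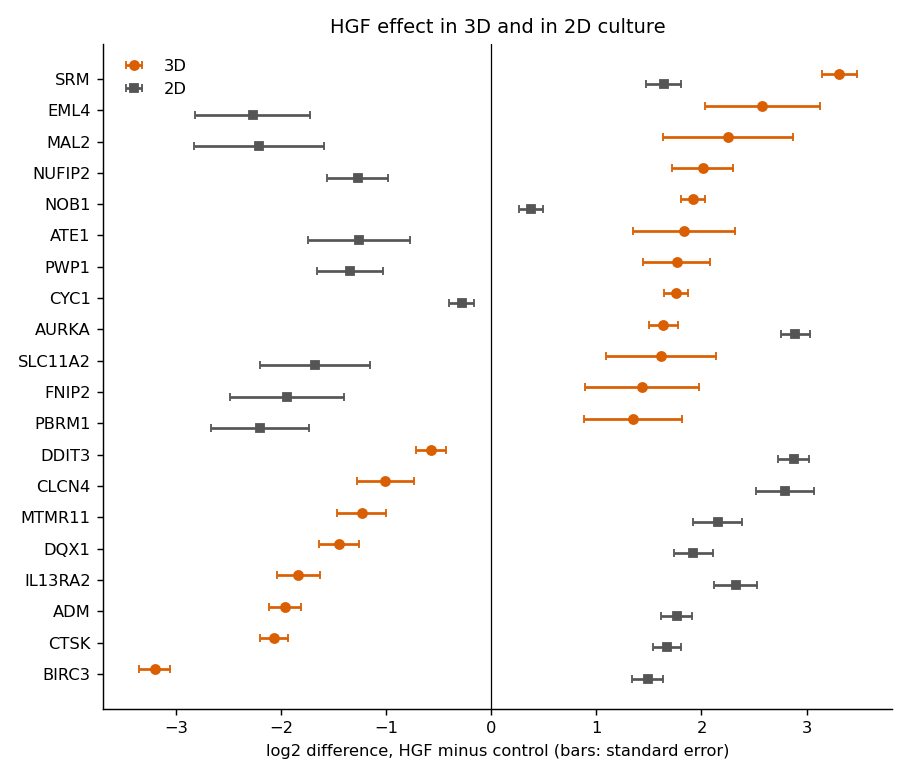
Log2 difference HGF minus control in 3D (orange circles) and in 2D (grey squares), with standard errors, for 16 genes whose effects passed with opposite signs and for NOB1, SRM, CYC1 and AURKA. BIRC3, IL13RA2, CTSK and ADM lie left of 0 in 3D and right of 0 in 2D, and EML4, NUFIP2 and PWP1 the other way.

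In 2D culture 56.9% of genes and 55.4% of probe sets were called, 29.4% of genes higher and 27.5% lower. Opposite directions were counted over the 6862 genes under strict conditions. A gene had to pass in 3D, in 2D and for the difference, with all 4 group means at log2 5 or more. Of the 6862 genes, 176 met this with a rise in 3D and a fall in 2D. A fall in 3D and a rise in 2D was found for 265. How many genes had all 4 means at that level was not counted. BIRC3 was at -3.20 ± 0.15 in 3D and 1.49 ± 0.15 in 2D, CTSK at -2.07 ± 0.13 in 3D and 1.67 ± 0.13 in 2D, and IL13RA2, a decoy receptor of interleukin 13, at -1.84 ± 0.21 in 3D and 2.33 ± 0.21 in 2D. DDIT3, a transcription factor of cell stress, was at -0.58 ± 0.15 in 3D and 2.88 ± 0.15 in 2D. Among genes that rose in 3D, EML4 had 8.55, 6.50, 8.41 and 8.72 in the HGF arrays, against 5.06, 5.39, 5.33 and 6.09 in the control arrays. It was at 2.58 ± 0.55 in 3D and -2.27 ± 0.55 in 2D, NUFIP2 at 2.01 ± 0.29 in 3D and -1.27 ± 0.29 in 2D, and PWP1, a nucleolar protein, at 1.76 ± 0.32 in 3D and -1.35 ± 0.32 in 2D. The standard errors of EML4 and PWP1 were wider than those of BIRC3 and CTSK. The RNA-quality index differed between the 2D groups too, at 0.838 ± 0.0476 in HGF arrays and 1.44 ± 0.100 in control arrays (SD, n = 4 each). Its part in these opposite signs was not tested. A fit with the index as a covariate gave EML4 at 2.56 and PWP1 at 1.88 in 3D. The 2D effects of single genes were not examined in that fit, so it cannot decide whether the opposite signs remain. The receptor genes also differed: MET was at 0.28 ± 0.16 in 3D and 1.12 ± 0.16 in 2D (adjusted p of the difference 0.00398), and EGFR at -0.22 ± 0.12 in 3D and 1.53 ± 0.12 in 2D (adjusted p of the difference 6.71e-09).

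The inhibitor arrays are set beside the HGF arrays only as values, since both comparisons share the 4 HGF arrays with the comparison above. With PD-98059 44.4% of genes were called against HGF alone (29.1% higher and 15.3% lower, and 42% of probe sets), and with U0126 51.9% (26.8% higher and 25.1% lower, and 49.3% of probe sets). TIMP1, an inhibitor of matrix proteases, had a mean level of 7.22 with PD-98059, 4.48 with U0126, 13.66 with HGF alone and 5.59 in control cells. LAMA3 stood at 11.97 with PD-98059, 11.37 with U0126, 15.30 with HGF alone and 12.35 in control cells, and EGF at 11.63 with PD-98059, 12.11 with U0126, 7.46 with HGF alone and 12.12 in control cells. For EGF the means with either inhibitor lie closer to that of control cells than to that with HGF alone. NOB1 was at 9.67 with PD-98059, 8.95 with U0126, 10.59 with HGF alone and 8.67 in control cells, TSC22D3 at 10.69 with PD-98059, 10.97 with U0126, 9.12 with HGF alone and 11.89 in control cells and CDC6 at 9.22 with PD-98059, 8.71 with U0126, 9.84 with HGF alone and 7.07 in control cells. The CDC6 means with an inhibitor stay above the control mean. In the list medians of the difference from HGF alone, ribosome biogenesis was at -0.56 with PD-98059 and -0.95 with U0126, mitosis at 0.02 with PD-98059 and -0.12 with U0126, primary cilium at 0.79 with PD-98059 and 0.90 with U0126, interferon and antigen presentation at 0.69 with PD-98059 and 0.86 with U0126, and all genes at 0.06 with PD-98059 and 0.00 with U0126.

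**Figure D5:**
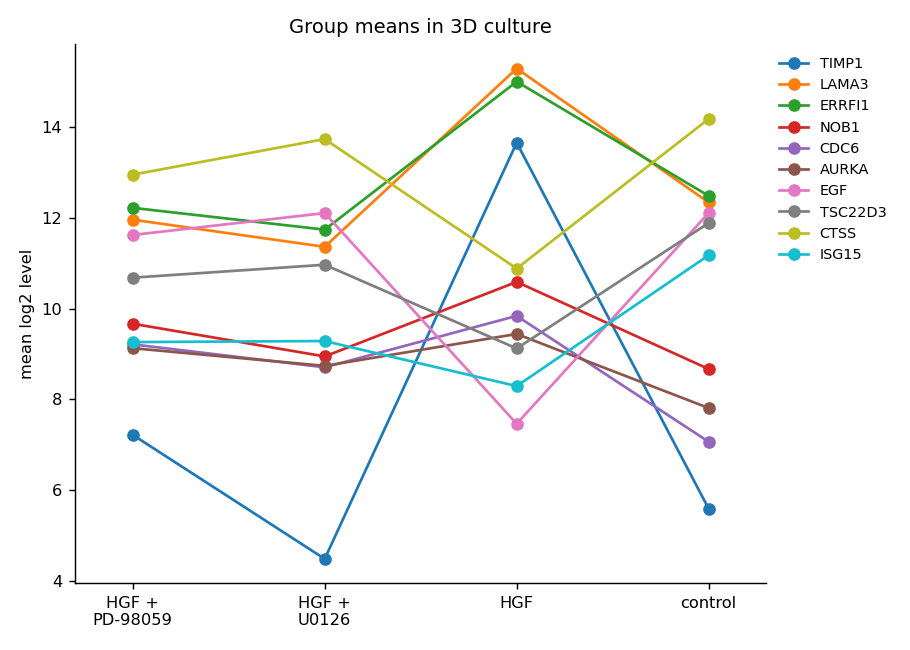
Mean log2 level of 10 genes in 3D cells given HGF with PD-98059 (n = 3), HGF with U0126 (n = 3), HGF alone (n = 4) and no HGF (control, n = 4); each line is a gene. TIMP1 and LAMA3 are highest with HGF alone, EGF and TSC22D3 are lowest there, and the CDC6 means with an inhibitor lie between those of HGF alone and control.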

How the data were processed

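Total RNA of MDCK cells was copied to cDNA, transcribed in vitro with biotin label and hybridised to Affymetrix canine arrays, per the labels. The authors deposited 1 table of log2 values for 43035 probe sets, already normalized across arrays. The submitters' processing notes name MAS5, Affymetrix Expression Console 1.1, GCRMA and Partek 6.6, without saying which made this table. The values were used as deposited, with no further normalization. Their precision is limited by the number of arrays, 4 for each group of the main comparison.

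Controls (111 probe sets) were left out. A level of log2 5 or more on at least 3 of the 29 arrays was required, which 16571 of the other 42924 probe sets reached. Gene names came from the platform annotation, in which 29264 of 29703 named probes carry 1 symbol and 439 several, and a probe with several named no gene. Genes with more than 1 tested probe set numbered 3575, of which 85 had calls in opposite directions. No genome positions were used.

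Means of 8 groups were fitted over the 29 arrays with limma 3.58.1 in R 4.3.3 (lmFit, and eBayes with a trend on level), and p-values were adjusted by the Benjamini-Hochberg method over all 16571 probe sets, with a threshold of 0.05. The fit was also run on simulated data with equal spread in all groups and changes in a small part of the probe sets. These data differ from that on both points, so the run does not show how the fit performs here. The effect in 3D minus that in 2D was tested in the same fit. Gene lists were described by counts and medians, with no test of a list. The members and the lists were chosen with earlier results of these data known. Genes were named by a rule: the largest changes and test statistics each way with both groups at log2 5 or more and no overlap, up to 4 called members of each list each way, the largest opposite effects in 3D and 2D, the highest levels, the largest spread among HGF arrays, and a few genes chosen by name, among them MET, EGFR and TIMP1. Alternatives changed the filter, the moderation, the arrays in the fit, the normalization and the weights, or added a replicate block or an RNA-quality covariate.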

Additional observations from a re-analysis of the deposited data

Results flagged for a closer look

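In groups of 4 arrays, an array was marked where its gap to the nearest other array was beyond Dixon's 95% critical value as a share of the group's whole range, which chance does for about 1 in 20 groups. It held for 23 of 390 groups examined, 15 of HGF arrays and 8 of control arrays in 3D. Among HGF arrays replicate 1 was marked for 5 genes. It was the lowest for CRYAB at 4.34, DUSP5 at 9.21, ISG15 at 7.84 and SOD2 at 8.23, and the highest for AXIN2 at 8.83. HGF replicate 2 was marked for 6 genes. It was the lowest for EML4 at 6.50, ITGB8 at 3.97, RRS1 at 5.80 and SLC25A32 at 8.26, and the highest for CCPG1 at 8.37 and TEAD4 at 5.96. HGF replicate 3 was the highest for DDIT3 at 7.52 and the lowest for NECTIN2 at 5.18, and HGF replicate 4 was the lowest for BHLHE40 at 9.68 and WIPI1 at 6.90. Among control arrays, replicate 4 was the lowest for ARNTL at 8.18, FDFT1 at 10.45 and ORC3 at 11.44 and the highest for NUFIP2 at 6.995. Control replicate 2 was the lowest for HPN at 10.39 and PATJ at 9.59, replicate 3 the highest for HSPB1 at 13.37, and replicate 1 the highest for POLR1G at 5.69.

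The effect of HGF differed between 3D and 2D culture, by the test of that difference in limma, for all 14 genes whose effects in both cultures are given. These genes were picked by size of difference, for their place in a list or by name, and are no sample of all genes. The effect in 3D minus that in 2D was above 0 for EML4 at 4.85, NUFIP2 at 3.28, PWP1 at 3.11, CYC1 at 2.04, SRM at 1.67 and NOB1 at 1.54. It was below 0 for BIRC3 at -4.69, IL13RA2 at -4.16, CTSK at -3.74, ADM at -3.73, DDIT3 at -3.45, EGFR at -1.75, AURKA at -1.26 and MET at -0.84.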

How the results depend on the processing

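The test of HGF in 3D called 10283 probe sets, 4879 higher and 5404 lower, and the test of the effect in 3D minus that in 2D called 8011. Asking for at least 2-fold left 3979 (1639 higher, 2340 lower) for HGF in 3D and 3547 (1500 higher, 2047 lower) for the difference between cultures. Leaving out 1 array at a time gave 9744 to 10407 for HGF in 3D and 7582 to 8347 for the difference. The arrays of the compared groups alone gave 9047 and 7570. The RNA-quality index as a covariate gave 10633 and 8636.

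The split between higher and lower depended on the scaling. Without a filter on level it was 8717 higher and 5461 lower for HGF in 3D, where 42924 probe sets were tested. Median centring gave 5875 higher and 4799 lower, and quantile normalization 5938 higher and 5137 lower. These scalings moved the median difference by 0.10 and 0.091 on the log2 scale, so the sign of a smaller difference depends on the scaling. With PD-98059 against HGF alone the split was 4408 higher and 2557 lower as deposited, 3485 and 3954 with median centring and 3825 and 3687 with quantile normalization. With U0126 it was 4214 higher and 3952 lower, 3712 and 4992 with median centring and 4142 and 4840 with quantile normalization. The alternatives for the inhibitors, for 2D culture, and for the lists with other arrays or the covariate were chosen after seeing the data.

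Whether replicate numbers pair the arrays is not known. The sample names in the descriptions number the 3D control arrays differently from the titles, and deviations of HGF and control arrays of the same title number correlated at 0.33, -0.20, -0.16 and 0.34 over probe sets, so the arrays were taken to share only a number. A replicate block by title number, whose meaning is uncertain for that reason, gave 8945 calls for HGF in 3D (4199 higher, 4746 lower) and 7646 for the difference between cultures. For the 328 genes chosen for naming, 6063 of 6225 values under alternatives kept direction and side of the threshold, 145 no longer passed, 17 newly passed and 0 reversed after passing. Probe sets near background limit the precision of every dim level.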
